A study of Mus musculus with 15 samples.

Results

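This comparison sets 3 libraries of mouse ovarian granulosa cells transfected with siRNA against Esr2, which encodes oestrogen receptor beta, against 3 libraries transfected with scrambled siRNA, all at 30 h. The 6 libraries were chosen by their sample titles and are part of a series of 15. The other libraries are scrambled siRNA at 54 h and Foxl2 siRNA at 30 h and 54 h, 3 of each. The series title ties the transcription factors FOXL2 and ESR2 to how cells migrate, invade and adhere. Both groups are primary granulosa cells of 8-week-old RjOrl:SWISS females with no genetic change, treated with 30 pmol of siRNA and Lipofectamine RNAiMax, so the transfection itself is common to them. Per the labels, the targeting siRNA was a pool of 3, with 4 pools named per target, and the same catalogue numbers are printed for both targets. Which pool went into which library is not given, and the extract protocol names 30 h alone. Whether a group's 3 libraries came from separate cultures or animals is not stated either. The p-values therefore measure only how these libraries vary among themselves, and that variation may be technical.

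Granulosa cells surround the oocyte, answer FSH and LH through cAMP, and make oestradiol and progesterone. Oestrogen receptor beta is their main oestrogen receptor. It is a nuclear receptor that binds DNA at oestrogen response elements and through other factors such as AP-1, and mice without it ovulate poorly. FOXL2, a forkhead factor, holds the same cells in their female identity.

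The 6 libraries held 44976872 to 59436383 gene counts each, and a count of 3 was worth 0.0497 to 0.0662 CPM (a gene's count scaled by its library's total). Levels below are TMM-normalised CPM, listed for replicates 1, 2 and 3. Most granulosa markers stood well above this floor in scrambled cells, with Inha at 1913 ± 14.7 CPM (SD, n = 3), Gata4 at 612 ± 15.7 CPM and Foxl2 at 157 ± 16.1 CPM. The FSH receptor gene Fshr had 65 counts over the 3 scrambled libraries and the anti-Muellerian hormone gene Amh 41, so both were close to absent. The summed leukocyte markers lay at 5.25 to 5.88 CPM with scrambled siRNA and 5.63 to 5.87 CPM with Esr2 siRNA, and the summed endothelial markers at 10.3 to 17.6 and 11.4 to 16.7 CPM. The sums were higher for theca and stroma markers, at 97 to 162 and 85 to 132 CPM. Those of smooth muscle and pericyte markers were 1150 to 1829 and 920 to 1550 CPM. Those of surface epithelium markers were 5283 to 5568 and 5144 to 5650 CPM. With 15 libraries edgeR called no marker of leukocytes, endothelium, oocytes, theca and stroma, surface epithelium, smooth muscle or erythroid cells. It called 4.23% of all tested genes. These lists had 7, 10, 4, 13, 16, 13 and 1 tested members in that order. None of them had more than 2 members at an unadjusted p under 0.05. A fit of the 6 libraries alone called 1 surface epithelium marker higher and 1 lower, where 7.84% of all genes were called.

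Esr2 (mm10 chromosome 12, 76120419 to 76177259, minus strand) was lower in every library given its siRNA. It stood at 60.6, 60.4 and 61.6 CPM with scrambled siRNA and at 12.9, 14.5 and 13.9 CPM with Esr2 siRNA. The groups did not overlap, and the fall was 4.43-fold (log2 -2.15 ± 0.35 SE, edgeR adjusted p = 0.00375). The other oestrogen receptors did not pass: Esr1, oestrogen receptor alpha, lay at 8.14, 10.3 and 10.2 CPM against 8.46, 7.27 and 9.65 CPM (edgeR adjusted p = 0.785). The membrane receptor gene Gper1 had 40 counts against 42, or 1.02-fold (95% exact interval 0.648 to 1.62, for counting error only). Of 23 tested steroid receptors and coregulators Esr2 and 1 other were called lower and 0 higher, against 3.11% and 1.13% of all tested genes. The other was Pgrmc2, a membrane-associated haem-binding progesterone receptor component, at 148, 134 and 140 against 97.0, 113 and 103 CPM (edgeR adjusted p = 0.0254). It was lost without any library except Esr2 siRNA replicate 2 (up to 0.154).

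Treatment separated the 6 libraries along the largest component of variation but not along the next. Principal component 1 of log2(CPM + 1), with 46.3% of the variance, gave scrambled libraries -17.5, -9.75 and -12.7 and Esr2 siRNA libraries 19.6, 1.5 and 18.8. Component 2 held 37.7% and set Esr2 siRNA replicate 2 (21.95) and scrambled replicate 1 (11.1) apart from the rest. Esr2 siRNA replicate 2 correlated more with scrambled replicate 1 (Pearson r = 0.9953 across genes, which are not independent replicates) than with Esr2 siRNA replicates 1 (0.9944) and 3 (0.9927). Its Esr2 level, 14.5 CPM, was nevertheless close to the 12.9 and 13.9 CPM of the other 2 Esr2 siRNA libraries. The ribosomal RNA feature Rn45s, together with Mir6236 and the protein-coding gene Lars2, summed to 3870, 916 and 906 CPM in scrambled libraries and to 771, 1750 and 1290 CPM in Esr2 siRNA libraries. In this sum the 2 libraries that stood apart were also the highest of their groups. Markers of stroma moved with the same libraries: the median theca and stroma marker, relative to the scrambled mean, lay at -0.91, 0.76 and 0.20 on the log2 scale in scrambled libraries and at -0.14, -1.33 and 0.31 in Esr2 siRNA libraries. The median smooth muscle and pericyte marker was also lowest of each group in these libraries, at -0.88 in scrambled replicate 1 and -1.03 in Esr2 siRNA replicate 2. The part of these differences in the results was not tested, and in bulk RNA fewer cells of a type and less RNA per cell cannot be told apart.

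Over 14907 tested genes 631 were called (4.23%), 168 higher (1.13%) and 463 lower (3.11%), so falls outnumbered rises. Of these 22 rose and 111 fell at least 2-fold, while 116 rises and 228 falls were under 1.5-fold. The median fold was 1.34 among the genes that rose and 1.5 among those that fell. Without scrambled replicate 1 and Esr2 siRNA replicate 2, 105 were higher and 517 lower. Upper-quartile scaling gave 250 higher and 396 lower. The test takes each gene's spread from all 15 libraries. A fit of the 6 libraries alone had a common dispersion of 0.0136 against 0.022 and called 1131 of 14423 genes (7.84%), 538 of which were among the 631.

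**Figure D1:**
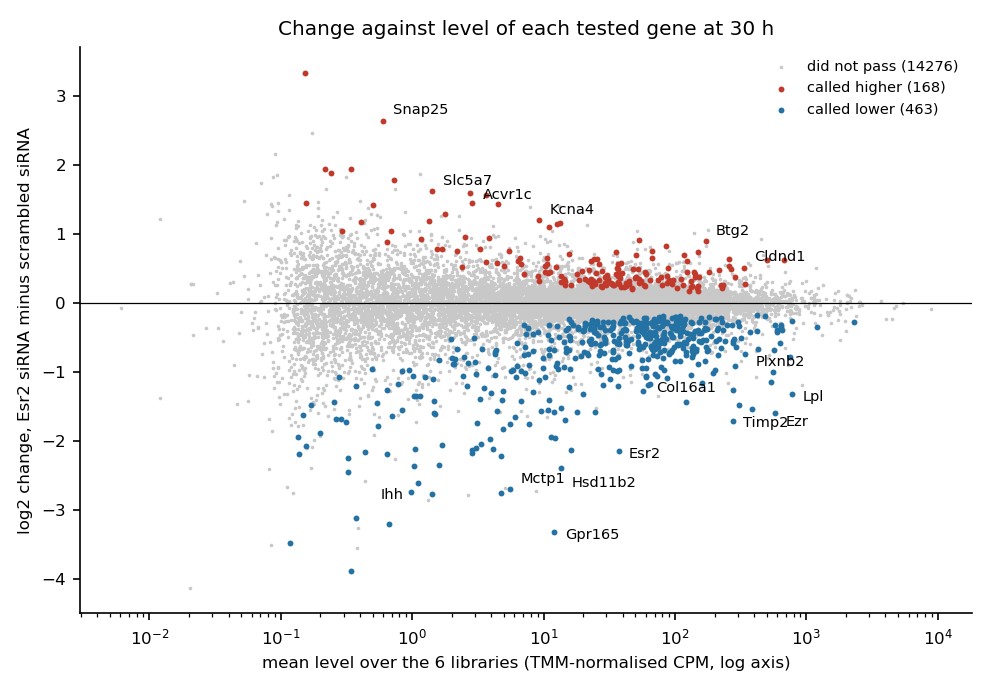
Each point is 1 of 14907 tested genes, with the mean CPM over the 6 libraries on the horizontal log axis and the log2 change, Esr2 siRNA minus scrambled siRNA, on the vertical axis; red points are the 168 genes called higher and blue points the 463 called lower. Blue points outnumber red ones, and 111 of them but 22 red ones lie at least 2-fold from 0.

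Many calls did not hold when any 1 library other than Esr2 siRNA replicate 2 was left out, and such fits also have fewer samples. Without Esr2 siRNA replicate 2, 542 of the 631 calls were kept, against 238 to 329 without any other single library. Of 85 called genes named here or in the gene lists, 31 were called in each of 6 fits that left out 1 of the 6 libraries, and 33 were lost in each of the 5 fits without a library other than Esr2 siRNA replicate 2. The genes described first below are mainly those that were called in all 6. The total was 342, 306 and 255 genes without scrambled replicates 1, 2 and 3, and 238, 1030 and 309 without Esr2 siRNA replicates 1, 2 and 3.

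Timp2 had the smallest p-value of all genes. It encodes a tissue inhibitor of metalloproteinases (chromosome 11, 118301069 to 118355740, minus strand) and stood at 393, 448 and 427 CPM with scrambled siRNA against 116, 128 and 144 CPM with Esr2 siRNA. The fall was 3.26-fold (log2 -1.71 ± 0.09, edgeR adjusted p = 1.13e-06), with no overlap of libraries. Foxl2 siRNA libraries at 30 h held 511 to 598 CPM, and the difference between the siRNAs was -2.09 ± 0.09 on the log2 scale (edgeR adjusted p = 1.03e-07, a test that uses the same Esr2 siRNA libraries). Among 60 invasion proteases and inhibitors 1 rose and 3 fell, against 1.13% and 3.11% of all genes. Plat, tissue plasminogen activator, rose 1.53-fold, from 97.9, 97.9 and 96.9 to 144, 156 and 147 CPM (edgeR adjusted p = 0.00181). Plau, the urokinase gene, went the other way, from 610, 538 and 582 to 235, 191 and 169 CPM (log2 -1.54 ± 0.38, edgeR adjusted p = 0.0408). The collagen chaperone gene Serpinh1 fell 1.27-fold (edgeR adjusted p = 0.0234). The Timp2 and Plat calls held in all 6 leave-one-out fits. That of Plau was lost in each of them (0.0766 to 0.159), and that of Serpinh1 without scrambled replicates 2 and 3 and Esr2 siRNA replicates 1 and 3 (up to 0.124).

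Several ligand and receptor genes of the follicle fell. Ihh, the hedgehog ligand by which granulosa cells signal to theca cells (chromosome 1, 74945315 to 74951672, minus strand), stood at 1.76, 1.92 and 2.03 CPM with scrambled siRNA and at 0.315, 0.254 and 0.364 CPM with Esr2 siRNA. These are 300 counts against 53, a 6.09-fold difference (95% exact interval 4.53 to 8.32; edgeR adjusted p = 0.006). The LH receptor gene Lhcgr had 70 counts against 23, a 3.27-fold difference (interval 2.02 to 5.5; edgeR adjusted p = 0.008), at a level below 1 CPM in every library. Both calls held in all 6 leave-one-out fits. Nppc and Npr2 encode C-type natriuretic peptide and its receptor, which hold the oocyte in meiotic arrest, and both fell. Nppc went from 6.76, 8.67 and 8.15 to 1.89, 1.08 and 2.10 CPM (log2 -2.21 ± 0.53, edgeR adjusted p = 0.0333). Npr2 went from 80.7, 82.2 and 80 to 55.1, 63.9 and 63.3 CPM (log2 -0.41 ± 0.09, edgeR adjusted p = 0.0147). The Nppc call was lost without any 1 of the 6 libraries (0.0722 to 0.127), and that of Npr2 without any scrambled library or Esr2 siRNA replicate 1 (up to 0.0949). Hey2, a Notch target repressor, fell from 12.7, 14.7 and 15.1 to 4.26, 5.26 and 4.95 CPM (log2 -1.56 ± 0.19, edgeR adjusted p = 0.000511) and was the 1 gene called of 29 in the Notch list, against 4.23% of all genes.

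In the cAMP pathway, 4 of 42 tested genes fell and 1 rose, against 3.11% and 1.13% of all genes. The CREB relative gene Atf1 fell from 57.7, 62.2 and 60.1 to 30.2, 31.5 and 34.2 CPM, 1.88-fold and without overlap (edgeR adjusted p = 0.00055). Rapgef4, an exchange factor that cAMP activates directly, had 196 counts against 72, a 2.93-fold difference (interval 2.22 to 3.89; edgeR adjusted p = 0.0364). Pde4d, which breaks cAMP down, rose 1.48-fold, from 31.7, 27.6 and 29.9 to 49.1, 41.6 and 41.6 CPM (edgeR adjusted p = 0.0288). Atf1 was called in all 6 leave-one-out fits, whereas Rapgef4 (up to 0.157) and Pde4d (up to 0.145) were lost without any library except Esr2 siRNA replicate 2.

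Steroidogenic genes went both ways. Hsd11b2, which inactivates glucocorticoids (chromosome 8, 105518755 to 105523988, plus strand), fell from 14.7, 25.3 and 28.6 CPM to 4.42, 3.27 and 5.41 CPM. All 3 scrambled libraries lay above all 3 Esr2 siRNA libraries, and the fall was 5.23-fold (log2 -2.39 ± 0.22, edgeR adjusted p = 5.27e-05). Fdx1, the ferredoxin that feeds electrons to the side-chain cleavage enzyme, was the most abundant gene that rose, from 517, 554 and 526 to 964, 731 and 763 CPM (log2 0.62 ± 0.15, edgeR adjusted p = 0.0345). Por, the electron donor of microsomal P450 enzymes, rose 1.30-fold (edgeR adjusted p = 0.0483). These were 2 higher and 1 lower of 26 tested steroidogenic genes, against 1.13% and 3.11% of all genes. Fdx1 and Por were lost without any library except Esr2 siRNA replicate 2 (up to 0.176 and 0.186). Star, which moves cholesterol into mitochondria, lay at 312, 316 and 305 CPM against 619, 568 and 593 CPM. These values are far apart, yet the gene did not pass (log2 0.93 ± 0.30, edgeR adjusted p = 0.11). It passed in the fits of 6 (0.000598) and of 9 libraries (2.28e-05), which leave out the Foxl2 siRNA groups, where Star ran from 294 to 542 CPM at 30 h. Cyp11a1, the side-chain cleavage enzyme itself, overlapped at 2260 to 2731 against 2479 to 2646 CPM (log2 0.01 ± 0.14, edgeR adjusted p = 0.982), a change whose sign differed between fits. The Cyp11a1 gene shares exon positions with Gm17322 on the same strand.

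**Figure D2:**
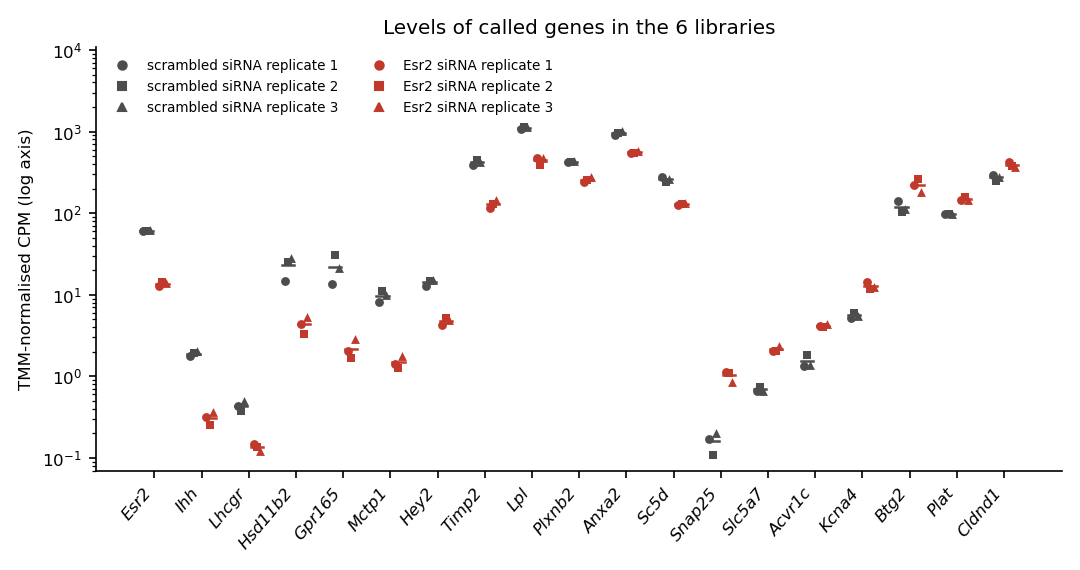
Points are the TMM-normalised CPM (log axis) of 19 called genes in each library, scrambled siRNA in grey and Esr2 siRNA in red with 1 marker shape per replicate, and bars are means of 3. The 12 genes on the left lie lower and the 7 on the right higher in all 3 Esr2 siRNA libraries, with no overlap.

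Among 28 tested granulosa identity genes 4 fell (Esr2, Ihh, Lhcgr and Npr2) and 0 rose, against 3.11% lower over all genes. The list median was -0.29 on the log2 scale, against -0.01 over all genes, and 17 members had all 3 Esr2 siRNA libraries below all 3 scrambled libraries, an order that 15.2% of all tested genes showed. Esr2 is the siRNA target and counts among them. Foxl2 lay at 174, 152 and 143 CPM with scrambled siRNA and at 112, 128 and 114 CPM with Esr2 siRNA, without overlap. It did not pass (log2 -0.41 ± 0.29, edgeR adjusted p = 0.539), although it did in the fits of 6 (0.0348) and 9 libraries (0.0204). Fst, the activin antagonist, lay at 45.6, 71.8 and 62.8 against 26.4, 31.5 and 35.3 CPM, again without overlap (edgeR adjusted p = 0.27, and 0.0243 with 6 libraries).

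The same held for other genes of the list. Gata4 (630, 600 and 606 against 473, 517 and 470 CPM), Nr5a1 and Nr5a2 encode transcription factors of steroidogenic cells. Their edgeR adjusted p-values were 0.0699, 0.0514 and 0.0912 with 15 libraries and 0.0151, 0.0386 and 0.0209 with 6. Gja1, the connexin 43 of granulosa gap junctions, lay at 1124, 1402 and 1338 against 562, 487 and 649 CPM, with 189 to 590 CPM in the Foxl2 siRNA libraries at 30 h (edgeR adjusted p = 0.224, and 0.00329 with 6 libraries). The aromatase gene Cyp19a1 lay lower in all 3 Esr2 siRNA libraries (2.41, 3.33 and 2.83 against 1.76, 1.02 and 1.89 CPM). It passed neither with 15 (0.453) nor with 6 libraries (0.0933), but did with 9 (0.0372). Wnt4 and the Sertoli gene Sox9 lay higher without overlap. Sox9 stood at 10.1, 8.69 and 9.47 against 18.2, 15.9 and 16.8 CPM (log2 0.85 ± 0.38, edgeR adjusted p = 0.27, and 0.00327 with 6 libraries), and 0 of 24 Sertoli and testis genes were called by edgeR with 15 libraries, against 4.23% of all genes. At an unadjusted p under 0.05 there were 4 higher and 5 lower, where 2625 of all 14907 genes passed in either direction. DESeq2 called 1 higher and 2 lower, against 408 and 701 of all genes. Voom called 6 each way, against 2148 higher and 2583 lower of all genes. The edgeR fit of 6 libraries called 4 of these Sertoli and testis genes higher and 1 lower, against 451 and 680 of all 14423 genes. Their median, relative to the scrambled mean, was 0.06, -0.08 and 0.002 in scrambled and 0.25, 0.13 and 0.16 in Esr2 siRNA libraries. Of their log2 changes 14 were positive and 10 negative. In all, the fit of 6 libraries called 11 of the granulosa identity genes lower and 1 higher, against 680 and 451 of all 14423 genes. Which fit describes these genes better was not tested.

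**Figure D3:**
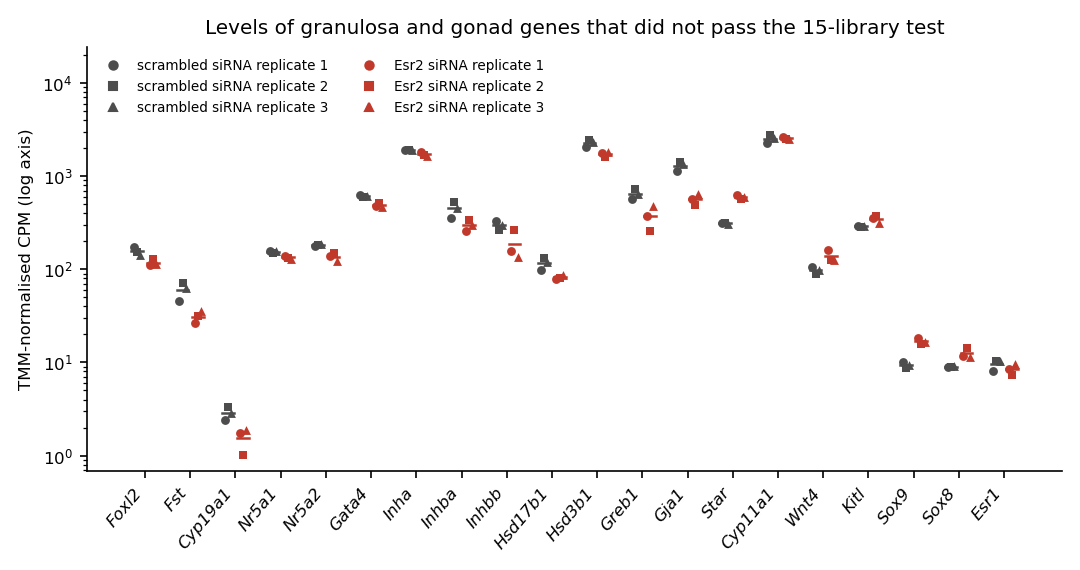
Points are the TMM-normalised CPM (log axis) of 20 granulosa and gonad genes that did not pass with 15 libraries, in grey for scrambled and red for Esr2 siRNA, with bars for means of 3. Star, Wnt4, Kitl, Sox9 and Sox8 lie higher and Foxl2, Fst, Gata4 and Gja1 lower without overlap, while Cyp11a1 and Esr1 overlap.

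A few members of each adhesion, migration and cytoskeletal list were called. The migration and guidance list had 1 gene higher and 4 lower of 79, the integrin and focal adhesion list had 1 higher and 3 lower of 61, and the cell junction list 1 each way of 60, against 1.13% and 3.11% over all genes. The actomyosin list had 0 higher and 3 lower of 50, with 36 negative log2 changes. Its median was -0.11, -0.10 and -0.02 in Esr2 siRNA libraries, below all 3 scrambled libraries, and that of the integrin list was -0.09, -0.05 and -0.02, also below all 3. Without overlap of libraries, 4 of the 50 actomyosin genes lay higher and 9 lower. In the integrin list 6 of 61 lay higher and 14 lower, against 14.2% and 15.2% of all genes. Plxnb2, a semaphorin receptor (chromosome 15, 89155549 to 89180788, minus strand), fell from 427, 428 and 431 to 243, 252 and 279 CPM (log2 -0.73 ± 0.07, edgeR adjusted p = 3.55e-05). Plxna2, of the same family, fell from 109, 145 and 133 to 64.3, 72.3 and 80.7 CPM (edgeR adjusted p = 0.000794). The semaphorin gene Sema7a fell 1.63-fold (edgeR adjusted p = 0.015) and the ephrin receptor gene Epha2 rose 1.56-fold (edgeR adjusted p = 0.012). Both plexin calls held in all 6 leave-one-out fits. Sema7a was lost without scrambled replicates 1 and 3 and Esr2 siRNA replicates 1 and 3 (up to 0.0835), and Epha2 without scrambled replicates 2 and 3 and Esr2 siRNA replicate 1 (up to 0.0744).

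The laminin-binding integrin gene Itga3 fell from 175, 159 and 167 to 97.1, 124 and 105 CPM (log2 -0.62 ± 0.13, edgeR adjusted p = 0.0188), and the collagen-binding Itga11 from 12.2, 7.87 and 9.07 to 4.42, 5.53 and 4.52 CPM (edgeR adjusted p = 0.0104). Vinculin (Vcl), a focal adhesion protein gene, fell 1.24-fold and N-cadherin (Cdh2), the main cadherin of granulosa cells, 1.31-fold (edgeR adjusted p = 0.0364 and 0.0106). The desmosomal cadherin gene Dsc2 rose 1.67-fold (edgeR adjusted p = 0.0181). Each of these calls was lost without some single libraries. Itga11 was lost without scrambled replicate 1 or Esr2 siRNA replicates 1 or 3, and Cdh2 without scrambled replicate 3 or Esr2 siRNA replicate 1. Dsc2 was lost without any scrambled library or Esr2 siRNA replicate 1, and Itga3 and Vcl without any library except Esr2 siRNA replicate 2. Their highest adjusted p-values were 0.0717, 0.0597, 0.0937, 0.123 and 0.199 in that order.

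Ezr encodes ezrin, which ties membrane proteins to actin, and showed how Esr2 siRNA replicate 2 differed. It stood at 928, 802 and 865 CPM with scrambled siRNA and at 177, 465 and 218 CPM with Esr2 siRNA (log2 -1.59 ± 0.30, edgeR adjusted p = 0.00873). All 3 lay below the scrambled libraries, and replicate 2 lay between. Without replicate 2 the log2 change was -2.13, and without replicate 3 the adjusted p was 0.0529. Ezr overlaps Sytl3 on the other strand, and the strand setting of the counting is not given in the sources used here, so reads of the 2 genes may not be told apart. Beta-actin (Actb), the most abundant gene that fell, went from 2563, 2433 and 2532 to 1982, 2214 and 2044 CPM, a difference of 1.21-fold (edgeR adjusted p = 0.0299). It was lost without any library except Esr2 siRNA replicate 2 (up to 0.174). Of 82 structural matrix genes 2 fell and 0 rose, against 3.11% and 1.13% of all genes. Col16a1, a fibril-associated collagen, fell from 77.7, 85.8 and 80.8 to 36.4, 36.8 and 45.0 CPM (log2 -1.05 ± 0.11, edgeR adjusted p = 0.000104) in all 6 leave-one-out fits. P4ha1, a collagen prolyl hydroxylase, fell 1.52-fold (edgeR adjusted p = 0.0416, 0.0877 with 6 libraries, and up to 0.196 without any library except Esr2 siRNA replicate 2).

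Several other genes fell in every leave-one-out fit. Gpr165, an orphan receptor gene on chromosome X (96713441 to 96719388, plus strand), showed the largest fall among genes of at least 1 CPM, from 13.7, 31.0 and 21.2 to 2.05, 1.66 and 2.86 CPM (log2 -3.32 ± 0.55, edgeR adjusted p = 0.00417). Mctp1, a calcium-binding membrane protein gene, fell 6.45-fold from 8.04, 11 and 9.91 to 1.42, 1.25 and 1.80 CPM (edgeR adjusted p = 0.000121). P2ry14, the receptor for UDP-glucose, had 273 counts against 43, a 6.83-fold difference (interval 4.94 to 9.65). Phyhip had 421 counts against 89, a 5.09-fold difference (4.04 to 6.47). Lpl, the lipoprotein lipase gene, fell 2.5-fold at a high level, from 1063, 1124 and 1142 to 469, 388 and 474 CPM (edgeR adjusted p = 0.00375). Anxa2, a calcium-dependent membrane-binding protein gene, fell 1.72-fold from 911, 959 and 1002 to 551, 545 and 573 CPM (edgeR adjusted p = 0.000693). Wars, a tRNA synthetase gene, and Ppp1r15a, which reverses the integrated stress response, fell 1.60-fold and 1.38-fold. They were 2 of 3 members called lower in a stress response list of 44, against 3.11% of all genes. Gm15107 fell as well (edgeR adjusted p = 1.26e-05), but it has near-identical copies on chromosome X and its count is uncertain. Colgalt2 (log2 -2.77 ± 0.70) and the cystathionine synthase gene Cbs (log2 -2.76 ± 0.72) were called at an adjusted p of 0.0415 and 0.0483. Each was lost without any 1 of the 6 libraries (up to 0.145 and 0.2). Cmtm2a (log2 -3.20 ± 0.68), which overlaps Cmtm1 and Gm45711 on the same strand, and the tenascin gene Tnr (log2 -2.18 ± 0.50) completed the 12 largest falls. Cmtm2a was lost without scrambled replicates 2 and 3 and Esr2 siRNA replicates 1 and 3 (up to 0.0988), and Tnr without any library except Esr2 siRNA replicate 2 (up to 0.147).

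The largest rises were at low levels and included genes better known from neurons. Snap25, a SNARE protein gene of regulated secretion (plus strand of chromosome 2, 136713453 to 136782428), lay at 0.172, 0.11 and 0.201 CPM with scrambled siRNA and at 1.14, 1.11 and 0.849 CPM with Esr2 siRNA. From 26 counts to 175, the rise was 6.26-fold (95% exact interval 4.13 to 9.85; edgeR adjusted p = 0.00181). Slc5a7, the choline transporter gene, had 109 counts against 363, a 3.1-fold rise (2.49 to 3.87; edgeR adjusted p = 0.008). The potassium channel gene Kcna4 rose from 5.25, 5.95 and 5.53 to 14.2, 11.8 and 12.5 CPM (log2 1.2 ± 0.17, edgeR adjusted p = 0.00136). Acvr1c, the activin receptor-like kinase ALK7, rose 2.74-fold from 1.36, 1.83 and 1.39 to 4.09, 4.07 and 4.37 CPM (edgeR adjusted p = 0.00204). These calls held in all 6 leave-one-out fits and the libraries did not overlap. Acvr1c overlaps Gm13544 on the other strand. In Foxl2 siRNA libraries at 30 h Slc5a7 lay at 0.178 to 0.256 CPM and Kcna4 at 3.63 to 5.98 CPM, and both differed between the siRNAs (edgeR adjusted p = 3.75e-05 and 7.47e-05, tests that use the same Esr2 siRNA libraries).

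Other rises among the 12 largest were Ndst3, Apela, 1500009C09Rik, Stxbp5l, the receptor kinase gene Ret, Lrrc4c and Neurl1a. Their log2 changes ran from 1.15 ± 0.28 for Neurl1a to 1.79 ± 0.38 for Ndst3. None of these held in all 6 leave-one-out fits. Apela overlaps Gm45886 and Neurl1a overlaps AC132288.2, each on the same strand. Apela, which encodes a ligand of the apelin receptor, and Lrrc4c were each lost without scrambled replicates 2 and 3 and Esr2 siRNA replicate 1 (up to 0.0872 and 0.0744). With 6 libraries the adjusted p of Apela was 0.0565. Ndst3 was lost without scrambled replicates 1 and 3 and Esr2 siRNA replicates 1 and 3 (up to 0.101), 1500009C09Rik without any 1 of the 6 libraries (up to 0.123), and Stxbp5l, Ret and Neurl1a without any library except Esr2 siRNA replicate 2 (up to 0.109, 0.137 and 0.163). Among abundant genes Cldnd1, a claudin-domain protein gene, rose from 292, 251 and 279 to 425, 379 and 372 CPM (log2 0.52 ± 0.08, edgeR adjusted p = 0.00313) and held in all 6. Btg2, an antiproliferative p53 target, rose 1.86-fold from 142, 104 and 112 to 219, 265 and 184 CPM (edgeR adjusted p = 0.00613) and held too. It was the 1 rise among 47 p53 and apoptosis genes, of which 5 fell, against 1.13% and 3.11% of all genes. Among the falls was Casp9, the initiator caspase gene (1.41-fold, edgeR adjusted p = 0.0036). Of 69 replication and cell cycle genes 0 were called with edgeR, where 4.23% of all genes were. At an unadjusted p under 0.05 there were 3 higher and 0 lower, where 2625 of all 14907 genes passed in either direction. DESeq2 called 1 higher, where it called 1109 of all genes in either direction. Voom called 10 higher and 3 lower, against 2148 and 2583 of all genes.

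Oestrogen-responsive genes, a list drawn from general knowledge of oestrogen targets, changed in both directions. Of 36 tested, 2 rose and 3 fell, against 1.13% and 3.11% of all genes, and the median log2 change was -0.05. Without overlap of libraries, 11 lay higher and 8 lower, against 14.2% and 15.2% of all genes. Rerg, a small GTPase gene, rose from 31.0, 29.8 and 28.8 to 44.3, 43.2 and 40.0 CPM (log2 0.51 ± 0.08, edgeR adjusted p = 0.00375), a call that held in all 6 leave-one-out fits. The EGF-like ligand gene Areg had 43 counts against 126, a 2.72-fold rise (interval 1.91 to 3.95; edgeR adjusted p = 0.0451). Igfbp5, an IGF-binding protein gene, fell from 310, 446 and 416 to 166, 95.2 and 230 CPM (log2 -1.26 ± 0.32, edgeR adjusted p = 0.0471). With 6 libraries the adjusted p was 0.057 for Areg and 0.0552 for Igfbp5. Areg was lost without any library except Esr2 siRNA replicate 2 (up to 0.182), and Igfbp5 without any library except Esr2 siRNA replicate 3 (up to 0.168). Greb1, Pgr and Amh did not pass with 15 libraries (edgeR adjusted p = 0.277, 0.804 and 0.89). Greb1, an oestrogen-induced gene in breast cells, lay at 563, 721 and 649 against 375, 260 and 479 CPM without overlap. The edgeR adjusted p of Greb1 was 0.072 with 6 libraries and 0.0239 with 9. The palindromic oestrogen response element GGTCANNNTGACC stood in the promoter window of 0 of 131 genes called higher and 0 of 355 called lower that matched a RefSeq promoter (250 bases before to 50 after the start, GRCm38.p6), and in 1 of 11216 tested genes. The half-site AGGTCA, on either strand, stood in 19.1% of the former, 14.9% of the latter and 15.1% of all tested genes with a window. The full element is so rare in these windows that its absence cannot tell the called genes from the rest.

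Interferon response and antigen presentation genes were lower almost throughout, and mostly in Esr2 siRNA replicates 1 and 3. Of 53 tested members 51 had a negative log2 change, the median was -0.63 against -0.01 over all genes, and 38 lay lower in all 3 Esr2 siRNA libraries without overlap, against 15.2% of all genes. Single members were variable: 4 passed, all lower, against 3.11% of all genes. With 6 libraries 13 were called lower, where 7.84% of all genes were called in either direction. The list's median in each library, relative to the scrambled mean, was 0.09, -0.05 and -0.03 with scrambled siRNA and -0.89, -0.26 and -0.91 with Esr2 siRNA. Replicate 2 was the highest of the 3 Esr2 siRNA libraries for 44 of 53 members (83%), and for 39.3% of all tested genes. The number called lower was 0 without scrambled replicate 1 or Esr2 siRNA replicate 1, 1 without scrambled replicate 2 or 3 or Esr2 siRNA replicate 3, and 27 without Esr2 siRNA replicate 2. It was 12 without scrambled replicate 1 and Esr2 siRNA replicate 2 together, where 517 of 15110 genes were called lower. Over all genes, 751 of 15128 were called lower without Esr2 siRNA replicate 2, and 202 to 285 without any other single library.

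The 4 that passed were Bst2, Trim25, Psmb8 and Tap2. Bst2, the tetherin gene that holds virus particles at the cell surface, went from 227, 227 and 208 to 133, 148 and 133 CPM (log2 -0.68 ± 0.15, edgeR adjusted p = 0.026). Trim25, a ubiquitin ligase of RIG-I signalling, went from 225, 197 and 205 to 115, 170 and 119 CPM (log2 -0.63 ± 0.12, edgeR adjusted p = 0.0106). The immunoproteasome gene Psmb8 and the peptide transporter gene Tap2 fell 1.52-fold and 1.51-fold (edgeR adjusted p = 0.0266 and 0.0333). Without single libraries the adjusted p-values of Bst2, Trim25, Psmb8 and Tap2 reached 0.123, 0.0684, 0.0997 and 0.112. Bst2 was lost without any library except Esr2 siRNA replicate 2, Trim25 without scrambled replicate 1 or Esr2 siRNA replicates 1 or 3, Psmb8 without any 1 library, and Tap2 without any scrambled library or Esr2 siRNA replicate 1. With 6 libraries the adjusted p of Tap2 was 0.0622. Psmb8 and Tap2 both overlap Gm20496 on the other strand. Ifit1, an RNA-binding antiviral effector, lay at 16.7, 15 and 15.1 against 4.49, 8.98 and 2.48 CPM and did not pass (log2 -1.56 ± 0.42, edgeR adjusted p = 0.0567). Isg15, a ubiquitin-like modifier, lay at 31.5, 24.2 and 24.6 against 7.34, 22.6 and 5.94 CPM (edgeR adjusted p = 0.237). The 2 members with positive changes were the regulator genes Irf1 (log2 0.25 ± 0.11) and Irf3 (log2 0.09 ± 0.05), neither of which passed.

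**Figure D4:**
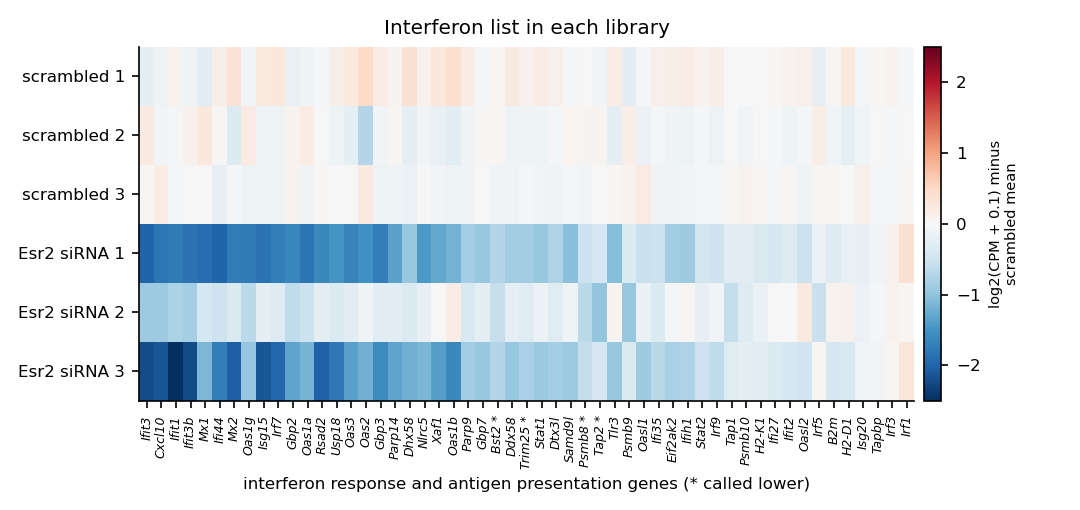
Each column is 1 of 53 tested interferon list genes and each row a library; colour is log2(CPM + 0.1) minus the mean of the 3 scrambled libraries, from -2.5 (blue) to 2.5 (red), and an asterisk marks the 4 genes called lower. Esr2 siRNA replicates 1 and 3 are blue over most columns and replicate 2 is paler, with list medians of -0.89, -0.91 and -0.26.

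Type I interferon acts on its target genes through the ISGF3 complex, which binds the interferon-stimulated response element in their promoters. The core GAAANNGAAA was searched on both strands of RefSeq promoter windows (GRCm38.p6). It stood in 18 of 41 matched genes of the interferon list (43.9%), in 3.74% of 11216 tested genes with a window and in 3.44% of all 32851 windows, which describes the list and not these libraries. Among all genes called lower 3.94% held it, and among those called higher 2.29%. Shown are 60-base stretches around the core, from the bases upstream of the start and on the gene's strand. They belong to 6 list members of small p whose libraries lay lower without overlap and whose window held a core of its own. Both the shared core and the shared fall thus follow from how these genes were chosen. The stretches therefore say nothing about a link between the core and a gene's level. Each whole core is in capitals (as TTTCNNTTTC where it lies on the other strand).
Bst2 (chr8:71537562-71537621, minus strand): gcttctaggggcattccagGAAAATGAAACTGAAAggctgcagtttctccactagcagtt
Cxcl10 (chr5:92349068-92349127, minus strand): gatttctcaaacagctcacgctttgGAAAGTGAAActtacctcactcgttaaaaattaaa
Ifit3 (chr19:34583382-34583441, plus strand): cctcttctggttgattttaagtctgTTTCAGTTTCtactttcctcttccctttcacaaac
Ifit1 (chr19:34640779-34640838, plus strand): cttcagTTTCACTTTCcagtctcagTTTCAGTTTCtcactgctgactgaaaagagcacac
Gbp2 (chr3:142620579-142620638, plus strand): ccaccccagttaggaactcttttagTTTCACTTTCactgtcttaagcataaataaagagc
Rsad2 (chr12:26456538-26456597, minus strand): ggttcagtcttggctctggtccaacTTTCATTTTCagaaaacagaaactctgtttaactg
The stretch of Bst2 holds overlapping cores, and that of Ifit1 a pair of separate ones. A match is a description of these letters and no evidence of binding. Of the 6, only Bst2 passed the test. Cxcl10 (log2 -1.57) and Ifit3 (-1.64) came close, at an edgeR adjusted p of 0.0538 and 0.0554, while Gbp2 (-1.16) and Rsad2 (-1.09) stood at 0.0885 and 0.171. The window of Ifit3b is identical to that of Ifit3, and reads of these copies may have been split between them.

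Cholesterol synthesis and uptake genes were mostly higher, although the members called were mainly lower. Of 38 tested genes 30 had a positive log2 change, the median was 0.19, and 21 lay higher without overlap, against 14.2% of all genes. Of these 1 passed: Srebf2, the master regulator of the pathway, rose 1.2-fold from 213, 211 and 206 to 264, 230 and 261 CPM (edgeR adjusted p = 0.0398, and 0.0546 with 6 libraries). Hmgcs1, an early enzyme, lay at 540, 613 and 596 against 849, 669 and 866 CPM (edgeR adjusted p = 0.202), and Lss, which closes the sterol rings, at 111, 106 and 109 against 145, 141 and 144 CPM (0.271, and 0.00306 with 6 libraries). The fit of 6 libraries called 10 members higher and 3 lower, against 451 and 680 of all 14423 genes. The 3 that fell with 15 libraries were Sc5d, Scap and the lipoprotein receptor gene Vldlr. Sc5d, a late enzyme of the pathway (chromosome 9, 42251595 to 42264256, minus strand), fell 2.02-fold from 275, 244 and 261 to 126, 129 and 132 CPM (log2 -1.01 ± 0.07, edgeR adjusted p = 8.23e-06). Scap, which escorts SREBP proteins, fell 1.27-fold from 697, 725 and 718 to 544, 557 and 590 CPM (edgeR adjusted p = 0.00411). Both held in all 6 leave-one-out fits. Vldlr was lost without any library except Esr2 siRNA replicate 3 (up to 0.0971), and Srebf2 without any library except Esr2 siRNA replicate 2 (up to 0.186).

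**Figure D5:**
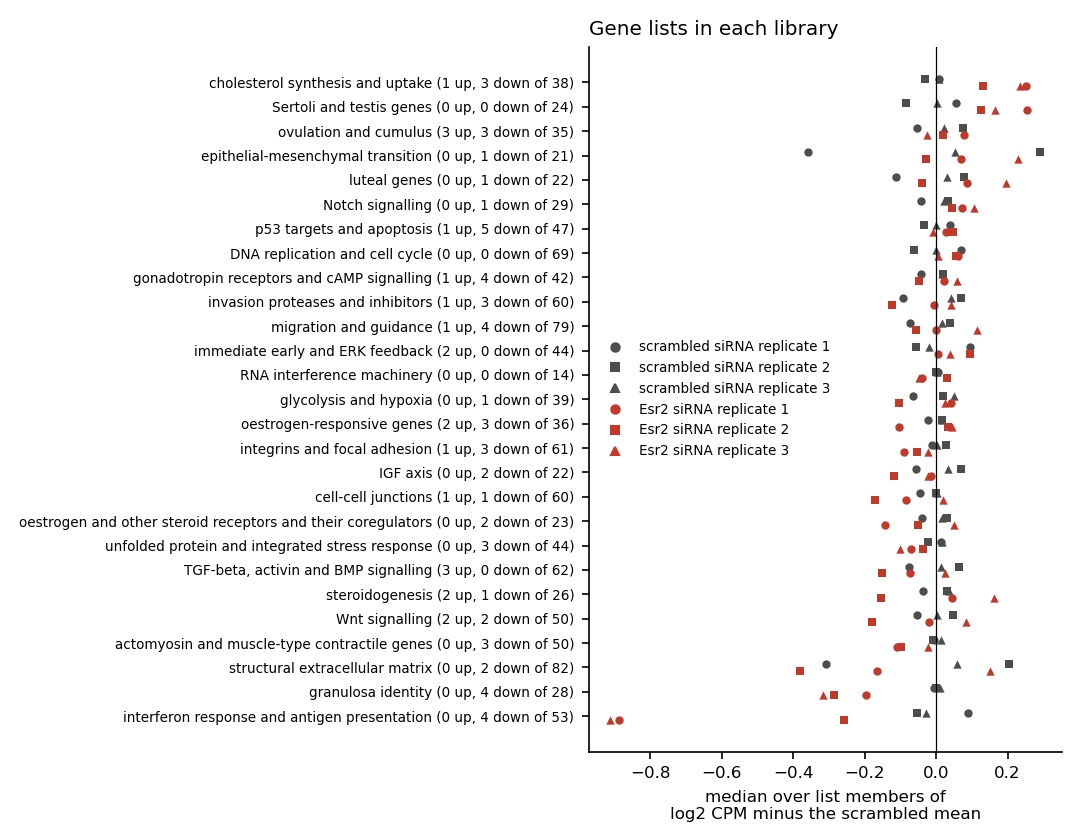
Each row is a gene list with the number of members called higher (up) and lower (down) of those tested; points are the median over members of log2 CPM minus the scrambled mean, in grey for the 3 scrambled and red for the 3 Esr2 siRNA libraries. The interferon list stands at -0.89, -0.26 and -0.91 in the 3 Esr2 siRNA libraries, with the granulosa identity list at -0.20, -0.29 and -0.32 and the cholesterol list at 0.25, 0.13 and 0.24.

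Foxl2 siRNA at 54 h against scrambled siRNA at 54 h uses none of these 6 libraries, although 1 fit supplied the spread for both. That comparison called 18.5% of all tested genes higher and 20.3% lower. Of the 463 genes that fell after Esr2 siRNA, 186 (40.2%) were lower there and 99 (21.4%) higher. These 186 are 6.13% of the genes lower after Foxl2 siRNA at 54 h, and the 99 are 3.59% of those higher. Of the 168 that rose, 55 (32.7%) were higher there and 37 (22%) lower, which are 2% and 1.22% of the respective Foxl2 siRNA genes. At 30 h, where 20.4% of tested genes differed between Esr2 and Foxl2 siRNA, Esr2 itself lay at 25 to 45.5 CPM in Foxl2 siRNA libraries, above the Esr2 siRNA libraries (log2 -1.27 ± 0.35, edgeR adjusted p = 0.0203). These levels were below all scrambled libraries at 30 h, but that fall did not pass (log2 -0.87, edgeR adjusted p = 0.109). At 54 h Esr2 was called lower after Foxl2 siRNA, at a mean of 27.7 against 68.8 CPM (log2 -1.31, edgeR adjusted p = 0.00854). The siRNA target is thus among the 186 shared falls. Some falls named above were also called after Foxl2 siRNA at 30 h, a test that uses the same scrambled libraries. They include Gpr165, Hsd11b2, P2ry14, Gm15107 and Plau (log2 -3.88, -1.87, -2.25, -2.16 and -1.65). Their differences between the siRNAs did not pass (edgeR adjusted p = 0.528, 0.115, 0.417, 0.648 and 0.868). After Foxl2 siRNA at 30 h Timp2 was called higher (log2 0.38), and Lpl and Anxa2 were not called.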

How the data were processed

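Poly(A) RNA was sequenced as single 75-base reads from stranded TruSeq libraries of 1.3 µg RNA, per the labels' protocols. The authors deposited whole-number read counts per gene for each library, not normalized. Per the submitters' processing notes, the tools included bcl2fastq 2.15.0, DESeq2 and TopHat2 with the mm10 build. No source used here gives the counting program, the annotation or the strand setting. Each file held 24582 features, of which 92 ERCC spike-ins (0.105% to 0.328% of counts in the 6 libraries) were left out. In scrambled replicate 1, 15 symbols turned into dates were restored from the gene order of the other files. Replicates of a group differed by a chi-square per degree of freedom of 7.97 to 48.8, so none was a copy.

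edgeR 4.0.16 (R 4.3.3) fitted 5 group means to 15 libraries (TMM, filterByExpr, quasi-likelihood test, 10 residual degrees of freedom), two-sided, with Benjamini-Hochberg adjustment over 14907 genes, and genes were called at an adjusted p under 0.05. A permutation test of 3 against 3 cannot go below p = 0.1. On simulated counts (14794 genes) the fit recovered 58.3%, 81.4% and 97.6% of 48, 70 and 82 genes changed 1.5-, 2- and 4-fold. The changed genes were drawn from the better-counted ones and no simulated library stood apart. These shares therefore do not cover genes of low count or libraries like the 2 that stood apart here. Alternatives used other scalings, no filter, DESeq2 1.42.0, limma 3.58.1 voom, other sets of libraries, a replicate block and leave-one-out.

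Named genes were a panel of 32, the 12 largest rises and falls of at least 1 CPM without overlap, the 5 most abundant of each, and up to 4 called members (otherwise up to 2 of smallest p) of each of 35 lists. Some list members were named after their values were seen (Ifit1, Ifit3, Cxcl10, Gbp2, Rsad2, Isg15, Irf1, Irf3, Hmgcs1, Lss and Gja1). A few genes that the rule picked are not reported here. The comparison and lists were chosen with earlier results of these data known. Positions are from GENCODE M21.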

Additional observations from a re-analysis of the deposited data

How the results depend on the processing

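Counts of calls differed between alternatives. Against 631 called genes (168 higher, 463 lower), DESeq2 called 1109 (408 and 701), limma voom with quality weights 4731 (2148 and 2583), the fit of 6 libraries 1131 (451 and 680) and that of 9 libraries 2031 (913 and 1118). RLE scaling gave 625, upper-quartile scaling 646 (250 and 396), and no expression filter 510. Leaving out single libraries gave 238 to 1030 calls, 34 to 279 higher and 202 to 751 lower. Leaving out scrambled replicate 1 and Esr2 siRNA replicate 2 together, chosen after seeing the data, gave 622 (105 and 517), of which 387 were among the 631. The cause of these differences was not tested, except that fits without a library use fewer samples.

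Replicate numbers did not pair the libraries: same-numbered deviations correlated at -0.137, -0.56 and 0.342, and not every library correlated best with its own number. With a replicate block there were 607 calls over 15 libraries, and 376 (100 and 276) over 6.

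Of 85 called named genes, none changed sign under any alternative run. Calls kept numbered 84 with RLE scaling, 80 with upper-quartile scaling, 78 without a filter, 83 with DESeq2 (1 gene had no value there), 85 with voom, 76 with 6 libraries, 85 with 9, 69 and 45 with a replicate block over 15 and 6 libraries, 50 without both libraries that stand apart, and 33 to 74 without single libraries. The fit of 6 libraries lost Apela, Areg, Igfbp5, Wnt7b, Bcar1, P4ha1, Bcl2, Tap2 and Srebf2. Upper-quartile scaling lost Cbs, Igfbp5, Vcl, Tap2 and Fscn1. Uncalled genes that changed sign, with their leave-one-out range, were Gper1 (-0.47 to 0.40; 0.26 without scrambled replicate 3, 0.40 without Esr2 siRNA replicate 2, 0.34 without both libraries that stand apart), Amh (-0.026 to 0.75; -0.026 without scrambled replicate 3), Cyp11a1 (-0.055 to 0.074; -0.013 with voom, -0.055 without scrambled replicate 1, -0.012 without Esr2 siRNA replicate 1, -0.048 without both), Rgs5 (-3.62 to 0.56; 0.56 without scrambled replicate 3) and Alas2 (-0.0044 without both). Depth limits Fshr, Amh and Gper1, each under 100 counts per group.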
